A study of Mus musculus with 2 samples.

Results

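The genes described here are 30 genes of cholesterol and fatty acid synthesis, chosen by symbol from the 32285 genes counted in single cells of the mouse corticoseptal boundary at embryonic day E16.5. All 30 were found: 18 enzymes of the sterol pathway, 8 enzymes of fatty acid synthesis, elongation and desaturation, and 4 genes of sterol regulation and transport. The list does not hold every enzyme of either pathway. The corticoseptal boundary is the midline tissue between cortex and septum that callosal axons cross. The series compared 1 wild-type (WT) library with 1 library from Tcf4f/f;Emx1Cre embryos (Tcf4_cKO, here cKO), which carry floxed Tcf4, the gene of a bHLH transcription factor, and Cre expressed from the Emx1 gene. Emx1 is active in progenitors of the dorsal telencephalon and their descendants, so interneurons and septal cells born elsewhere in the same dissection are outside the Cre lineage. Neither the number of embryos in a library nor the floxed exon is given in the labels.

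The filtered data held 8695 WT cells with a median of 9683 UMIs (unique molecular identifiers, 1 for every transcript molecule that was caught) and 10232 cKO cells with a median of 8171, and the 30 genes held 202629 and 189225 UMIs in them. Cells were grouped into classes by marker genes, and a class name stands for cells like that type. Levels are UMI sums of a class scaled to 1000000 UMIs of that class, as CPM. They are not scaled by gene length, since each transcript is tagged at its 3' end, so levels are compared between cells; where genes were picked by level, this says only how many UMIs they had. With 1 library per genotype there is no replicate and no test: every interval is a 95% interval for counting error alone, and a difference between the genotypes cannot be told apart from a difference between 2 libraries. Tcf4, the targeted gene, had a cKO over WT ratio of 0.610 in intermediate progenitors, 0.666 in glutamatergic neurons, 0.703 in cycling progenitors, 0.839 in astroglia and 0.891 in GABAergic neurons. UMIs from outside the floxed exon say nothing about the protein that was left.

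Cholesterol is built in the cell from acetyl-CoA: the mevalonate steps make isoprenoid units, these are joined to squalene, squalene is closed to lanosterol, and a last series of enzymes trims lanosterol to cholesterol. The transcription factor SREBP2, encoded by Srebf2, switches these genes on when membrane sterol is low, SREBP1, encoded by Srebf1, acts mainly on fatty acid genes, and the Insig proteins hold both precursors in the endoplasmic reticulum when sterol is plentiful. Lipoproteins of the blood do not cross into the brain, which therefore makes its own cholesterol, and glia are a main source.

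SREBP binds sterol regulatory elements, usually beside sites of the factor NF-Y, whose core motif is CCAAT. The promoters of Hmgcs1, Idi1, Cyp51 and Msmo1 are shown because their genes had many UMIs or ratios far from 1 in the results below; which ones to print was decided after the values were seen. Each is the 250 bases before the RefSeq start (GRCm38.p6), on the strand of the gene, with CCAAT or its reverse complement ATTGG in capitals and, in Hmgcs1 alone, a match to TCACNCCAC. The genes are Hmgcs1 (ENSMUSG00000093930, chr13:119690379-119708260), Idi1 (ENSMUSG00000058258, chr13:8885501-8892451), Cyp51 (ENSMUSG00000001467, chr5:4081145-4104746) and Msmo1 (ENSMUSG00000031604, chr8:64718139-64733792), with gene positions from GENCODE vM21 on mm10.
Hmgcs1 (chr13:119690101-119690350, plus strand): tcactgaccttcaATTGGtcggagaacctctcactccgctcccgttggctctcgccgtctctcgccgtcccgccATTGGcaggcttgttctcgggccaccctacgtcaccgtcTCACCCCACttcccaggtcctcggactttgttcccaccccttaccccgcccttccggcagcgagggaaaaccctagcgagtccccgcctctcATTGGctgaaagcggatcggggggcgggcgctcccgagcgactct
Idi1 (chr13:8885356-8885605, plus strand): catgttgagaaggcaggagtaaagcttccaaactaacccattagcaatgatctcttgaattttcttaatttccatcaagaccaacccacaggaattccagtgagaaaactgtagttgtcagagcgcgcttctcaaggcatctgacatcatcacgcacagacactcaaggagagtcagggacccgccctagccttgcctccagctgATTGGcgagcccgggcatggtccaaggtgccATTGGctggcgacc
Cyp51 (chr5:4104698-4104947, minus strand): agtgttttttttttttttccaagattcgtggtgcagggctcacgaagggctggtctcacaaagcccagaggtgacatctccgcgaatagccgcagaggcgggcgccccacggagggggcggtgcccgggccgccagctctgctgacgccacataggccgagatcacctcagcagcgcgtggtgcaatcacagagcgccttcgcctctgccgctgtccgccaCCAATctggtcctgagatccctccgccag
Msmo1 (chr8:64733579-64733828, minus strand): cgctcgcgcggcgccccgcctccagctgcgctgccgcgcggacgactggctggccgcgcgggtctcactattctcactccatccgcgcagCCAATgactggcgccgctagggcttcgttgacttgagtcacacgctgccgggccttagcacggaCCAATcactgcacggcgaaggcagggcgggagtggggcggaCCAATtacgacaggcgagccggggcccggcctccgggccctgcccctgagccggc
The RefSeq promoter table held windows for 23 of the 30 genes, 15 of them sterol enzymes. Both strands of each window of 300 bases, which runs from 250 bases before the start to 50 after it, were searched. CCAAT stood in 14 of the 15 sterol enzymes, against 41.1% of all 27025 genes in the table, and in 2 of 5 fatty acid enzymes. The sterol element form TCACNCCAC stood in 1 of the 15, Hmgcs1, where the site TCACCCCAC lay at -137 from the start, against 1.44% of all genes. No other form of that element was searched, so a window without a match may still hold one. The E-box CANNTG, the general form bound by bHLH factors, stood in 11 of the 15, against 20265 of the 27025 genes, and its form CACGTG, which CANNTG includes, in 3 of the 15, against 8.09%. These matches are a description of letters and not of binding.

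In the WT library the sterol enzymes were highest in astroglia, the class of radial glia and astrocyte precursors. Their summed level was 2655 CPM in astroglia, 1278 CPM in GABAergic neurons, 1163 CPM in cycling progenitors, 955 CPM in glutamatergic neurons and 810 CPM in intermediate progenitors, which arise from radial glia and divide to give neurons. The 5 intervals did not overlap. Smaller classes fell within that range or below it: oligodendrocyte progenitors held 1957 CPM, Cajal-Retzius cells 1410 CPM and microglia 387 CPM. The 8 fatty acid enzymes were spread more evenly, with 1025 CPM in astroglia and between 537 and 615 CPM in the other 4 large classes. Relative to glutamatergic neurons, the astroglial level was 2.78-fold (2.73 to 2.83) for the sterol sum and 1.91-fold (1.86 to 1.96) for the fatty acid sum.

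**Figure D1:**
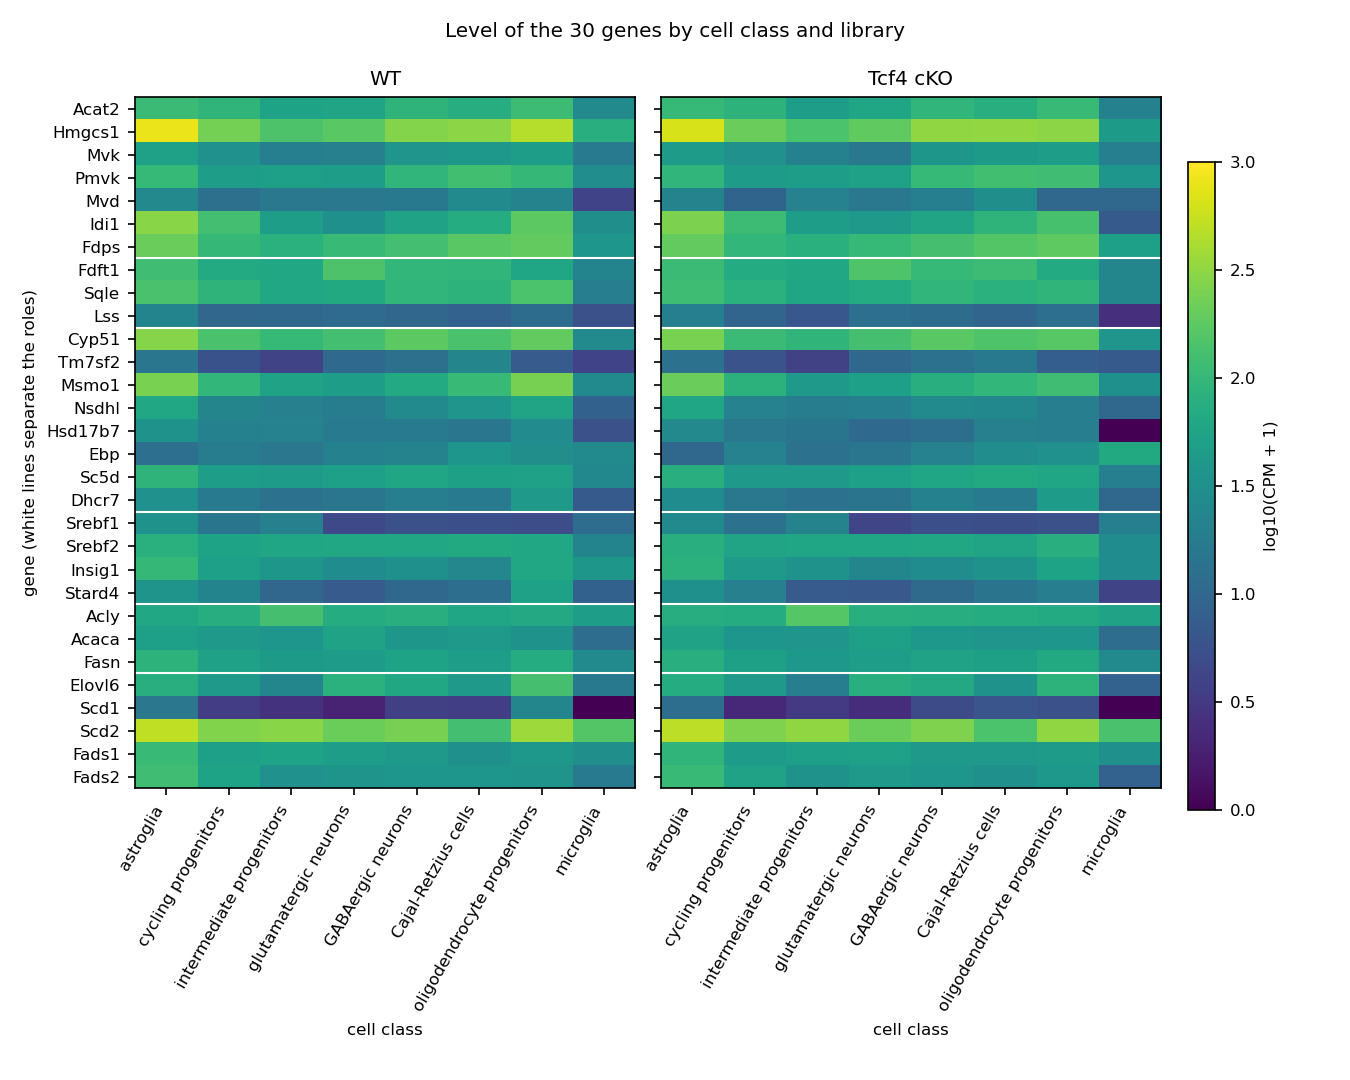
Level of each of the 30 genes (rows, ordered by role with white lines between roles) in 8 cell classes (columns) of the WT library (left) and the Tcf4 cKO library (right), as log10 of CPM plus 1. Astroglia are the brightest column for most rows in both panels.

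Among the 5 large classes, 25 of the 30 genes were highest in astroglia in WT, against 31.8% of all genes with at least 20 UMIs in these classes, and 24 in cKO, against 28.4%. The exceptions in WT were Fdft1, Acaca and Elovl6, highest in glutamatergic neurons, Ebp, highest in GABAergic neurons, and Acly, highest in intermediate progenitors. Fdft1 makes squalene, the first step committed to sterols, and held 118 CPM in astroglia and 144 CPM in glutamatergic neurons of WT. Its exons overlap those of Ctsb on the other strand, so reads of both genes cannot be told apart unless strand was used. Ebp, an isomerase late in the pathway, ran against the other sterol enzymes: it was lowest in astroglia in both libraries, and over the 26 clusters with at least 50 WT cells its rank correlation with the summed level of the other 17 was -0.53 in WT and -0.43 over as many clusters in cKO. For the other sterol enzymes the same rho ran from 0.57 to 0.97 in WT and from 0.47 to 0.94 in cKO. These values describe clusters of 1 library, which share depth and free RNA. Of the fatty acid enzymes, Fasn (0.86 and 0.86) followed the sterol level across clusters while Acly, which makes the cytosolic acetyl-CoA that both pathways use, did not (-0.19 and -0.33).

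The 5 genes picked for the most UMIs, by the summed CPM of WT astroglia and glutamatergic neurons, were Hmgcs1, Scd2, Idi1, Cyp51 and Fdps. Hmgcs1, which makes the HMG-CoA that enters the mevalonate pathway, held 824 CPM in WT astroglia and 168 CPM in WT glutamatergic neurons. Scd2, the main stearoyl-CoA desaturase of the developing brain, held 514 and 208 CPM. Idi1, which isomerises the 5-carbon isoprenoid unit, held 290 and 31.2 CPM, a 9.31-fold (8.48 to 10.2) difference. Cyp51, the lanosterol demethylase, held 281 and 126 CPM, and Fdps, which joins isoprenoid units to farnesyl diphosphate, 204 and 103 CPM. Each of the 5 was higher in astroglia than in glutamatergic neurons by its counting interval, in cKO as in WT. The pick used the same WT levels, so these 5 are no separate support for that order. Of all 30 genes, 25 were higher in astroglia and 4 lower in WT, and 25 were higher and 2 lower in cKO. The share of all genes in that order was not counted. Of the 30 genes, 4 share exon sequence with another gene on the same strand and 7 with one on the other strand, among them Fdps (Gm43738) and Scd2 (Mir5114) on the same strand and Hmgcs1 (Gm48342), Idi1 (Gm48574) and Cyp51 (Akap9) on the other.

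The main comparison asked whether the 30 genes differed between the genotypes within a class. In astroglia the summed sterol level was 2655 CPM in WT and 2262 CPM in cKO, which is 14.8% lower, with a ratio of 0.852 (0.839 to 0.865). The fatty acid sum was 1025 and 971 CPM, a ratio of 0.947 (0.925 to 0.971). All 18 sterol enzymes, 6 of 8 fatty acid enzymes and all 4 regulators and transporters were lower in cKO. The median log2 ratio of the 30 was -0.18 against -0.03 for all 13896 genes with at least 20 UMIs in the class, and 28 of 30 were lower against 56.7% of all genes. The ratio of 20 of the 30 had an interval wholly below 1, against 19.9% of all genes, and 1 had an interval wholly above 1, against 12.4%; how narrow an interval is depends on how many UMIs a gene has. The size of the difference was small: 2 of 30, Hmgcs1 and Srebf1, were more than 20% lower (after 5 CPM was added to each level), 6.67% against 7.62% of all genes, so the shift was in direction and not in an excess of large changes. Under the alternative settings this count ran from 0 to 4. When the clusters of the class counted equally, the log2 ratio of the sterol sum moved from -0.232 to -0.161. That of the fatty acid sum moved from -0.0778 to -0.00109.

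By role, the lower values in astroglia ran through the whole sterol pathway. Of the mevalonate enzymes, Hmgcs1 held 824 CPM in WT and 651 CPM in cKO, a ratio of 0.790 (0.768 to 0.812), and the other 6 had ratios between 0.829 and 0.927 with every interval below 1. Of the 3 enzymes from squalene to lanosterol, Sqle, the squalene epoxidase, held 138 and 116 CPM, a ratio of 0.843 (0.787 to 0.902). Fdft1 and Lss had ratios of 0.931 and 0.858, with intervals that reached 1. Of the 8 enzymes from lanosterol to cholesterol, Msmo1, a methyl sterol oxidase, held 251 and 205 CPM, a ratio of 0.817 (0.777 to 0.860). Hsd17b7, a sterol ketoreductase, held 32.4 CPM in WT and 25.1 CPM in cKO, a ratio of 0.774 (0.669 to 0.895). Ratios of the other 6 lay between 0.824 and 0.916, and the intervals of Tm7sf2, Nsdhl and Ebp held 1. When the clusters of the class counted equally, the log2 ratio of Hmgcs1 moved from -0.338 to -0.198 and that of Msmo1 from -0.285 to -0.163, and with thinned cells that of Hmgcs1 was -0.250.

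Of the SREBP genes, Srebf1 was lower in cKO astroglia by its counting interval, while the ratio interval of Srebf2 held 1. Srebf1 held 33.8 CPM in WT (interval 30.9 to 37.0) and 25.6 CPM in cKO (22.9 to 28.6), which gave a ratio of 0.758 (0.656 to 0.874), while Srebf2 held 79.0 and 77.2 CPM, with a ratio interval of 0.896 to 1.07. Insig1, itself an SREBP target, held 97.9 and 84.2 CPM, a ratio of 0.860 (0.794 to 0.932). Stard4, a cytosolic sterol carrier, held 34.8 and 30.7 CPM, with an interval of 0.769 to 1.01. Exons of Srebf1 overlap Rai1 on the other strand and Mir6922 on the same strand. Of the genes of the fatty acid arm, Fads1 and Fads2, the desaturases that make polyunsaturated fatty acids, had ratios of 0.856 (0.792 to 0.925) and 0.869 (0.808 to 0.934). Scd1, another stearoyl-CoA desaturase, held 14.3 and 11.1 CPM, a ratio of 0.772 (0.618 to 0.962), and its relative Scd2 held 514 and 496 CPM, a ratio of 0.965 (0.932 to 0.998). Acly went the other way, with 62.4 CPM in WT and 72.2 CPM in cKO, a ratio of 1.16 (1.05 to 1.27). The Scd2 log2 ratio of -0.05 turned to 0.0329 when the clusters of the class counted equally and to 0.00355 once unnamed cells were counted in, and that of Fads2, -0.19, turned to 0.0547 with clusters counted equally and was -0.0696 with unnamed cells. That of Fads1, -0.213, was -0.0285 with thinned cells, -0.0997 with clusters counted equally and -0.105 with unnamed cells.

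**Figure D2:**
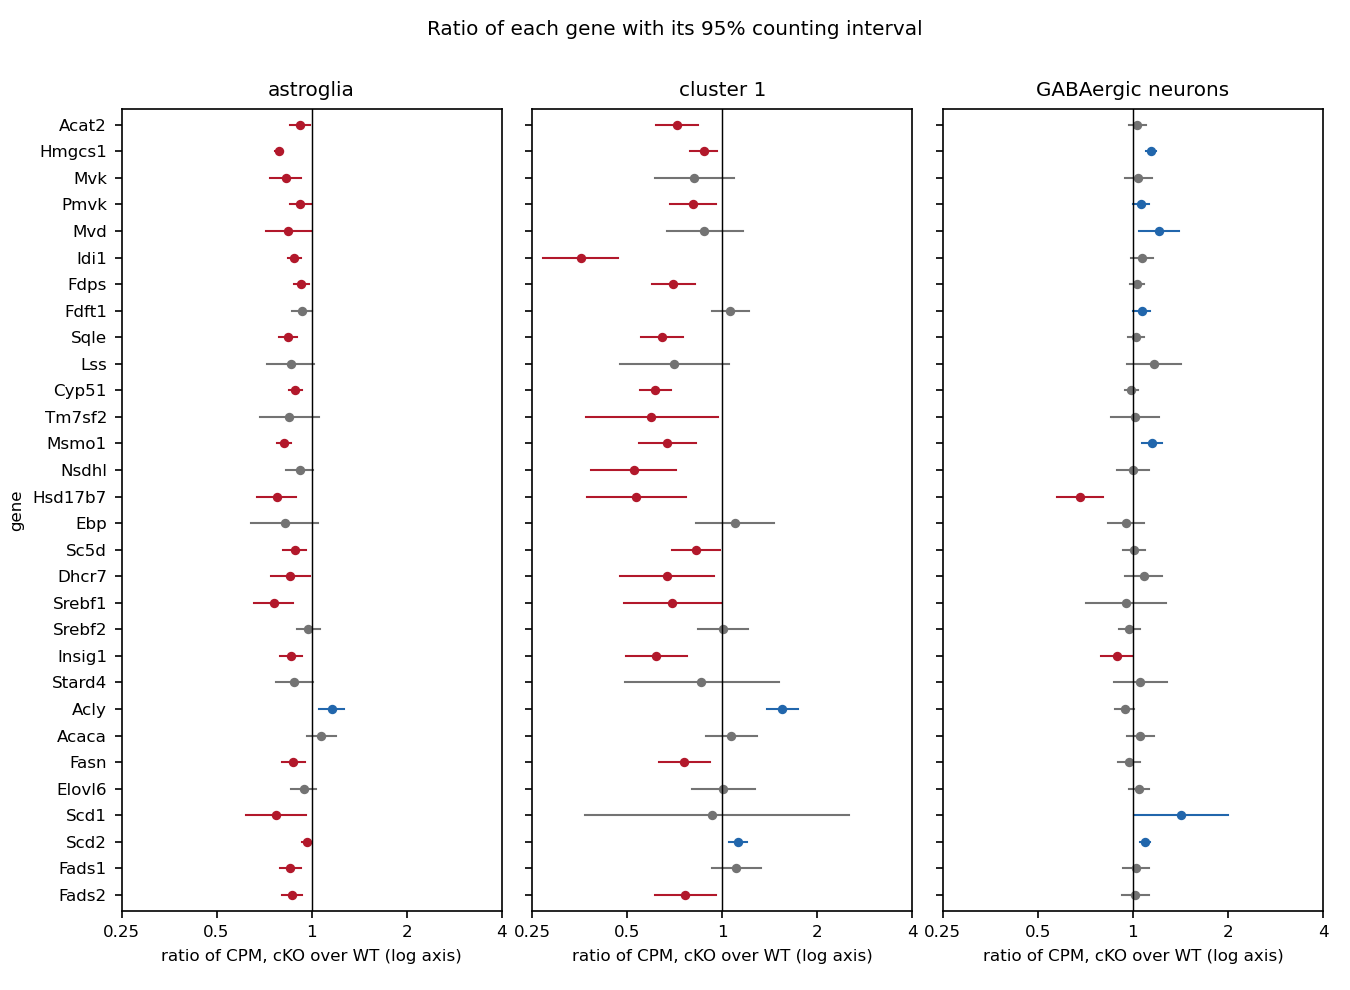
Ratio of CPM, cKO over WT, of each of the 30 genes in astroglia, in cluster 1 (cells nearest glutamatergic neurons) and in GABAergic neurons, on a log axis, with 95% counting intervals. Red marks an interval wholly below 1, blue one wholly above 1 and grey the rest: 20 are red in astroglia, 17 in cluster 1 and 2 in GABAergic neurons.

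GABAergic neurons, taken to arise outside the Emx1 lineage, which was not tested here, had 3.00 CPM of Emx1 in WT and were in the same 2 libraries. Tcf4 was not unchanged in them, with a class ratio of 0.891 (0.870 to 0.913), and their clusters differed. The Tcf4 ratio was 0.790, 0.759 and 0.833 in clusters 0, 3 and 4, and 0.985, 1.20 and 1.60 in clusters 22, 23 and 9. The sterol sum of the class was 1278 CPM in WT and 1352 CPM in cKO, which is 5.79% higher. Its ratio was 1.06 (1.04 to 1.08), and that of the fatty acid sum was 1.04 (1.02 to 1.07). Of the 30 genes, 21 were higher, against 52.0% of all genes, and 7 had an interval wholly above 1, against 12.5%; the median log2 ratio was 0.04. Hmgcs1 held 276 and 315 CPM, a ratio of 1.14 (1.10 to 1.18), Msmo1 66.8 and 76.9 CPM, a ratio of 1.15 (1.07 to 1.23), and Mvd, the mevalonate diphosphate decarboxylase, 15.3 and 18.5 CPM, a ratio of 1.21 (1.05 to 1.40). Scd2 held 240 and 263 CPM, a ratio of 1.09 (1.05 to 1.14). Hsd17b7 was lower, at 16.3 and 11.1 CPM, with a ratio of 0.680 (0.576 to 0.802), and was thus lower in cKO in astroglia, glutamatergic and GABAergic neurons alike. Insig1 held 31.4 and 27.9 CPM in GABAergic neurons, with a ratio of 0.888 (0.795 to 0.991), and these 2 genes were the ones with an interval wholly below 1, against 9.69% of all genes. The log2 ratio of the sterol sum, 0.0813, was above 0 in all 13 settings tried but was 0.0503 with thinned cells, 0.0478 with doublet calls kept in and 0.0446 with the mean of the members' log2 ratios. That of Hsd17b7, -0.405, was -0.259 with thinned cells, and that of Hmgcs1, 0.188, was 0.114 with thinned cells and 0.108 with clusters counted equally.

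The difference between these classes was larger than counting error. The astroglial log2 ratio of the sterol sum minus the GABAergic one was -0.31 (-0.35 to -0.28), and 18 of the 30 genes had such a difference wholly below 0, against 16.2% of all genes with at least 20 UMIs in both classes. Hmgcs1 was at -0.53 (-0.60 to -0.47) and Msmo1 at -0.49 (-0.62 to -0.37). The only one of the 30 with a difference wholly above 0, against 11.3% of all genes, was Acly, at 0.29 (0.13 to 0.46). For Hsd17b7 the interval of the difference, -0.12 to 0.50, held 0. In free RNA, read from droplets of 10 to 100 UMIs, the sterol sum was 1078 and 1099 CPM, a ratio of 1.02 (0.970 to 1.07). Free RNA was estimated at 2.24% of a neuron's UMIs in WT and 1.19% in cKO.

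Each cell was also thinned to 3341 UMIs, a depth that all cells had. Thinned WT astroglia held a median of 7 sterol UMIs per cell (quartiles 4 and 12) and cKO astroglia 6 (3 and 10). Cells with 10 or more made up 35.7% in WT and 28.5% in cKO, and cells with none 2.86% and 2.61%, so fewer cells held many sterol UMIs while the share with none differed little. In GABAergic neurons the median was 4 in both libraries. Thinned shares of astroglia with a UMI of Msmo1 were 47.7% (45.1 to 50.3) in WT and 42.3% (39.7 to 44.9) in cKO, and those for Srebf1 11.2% and 8.62%. Unthinned, they were 73.9% and 68.0% for Msmo1 and 27.8% and 19.4% for Srebf1. No class is known to lack these genes; in microglia, with median depths of 10098.5 and 8745.5 UMIs against 9204 and 8051 in astroglia, thinned Msmo1 shares were 11.1% and 8.33%.

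**Figure D3:**
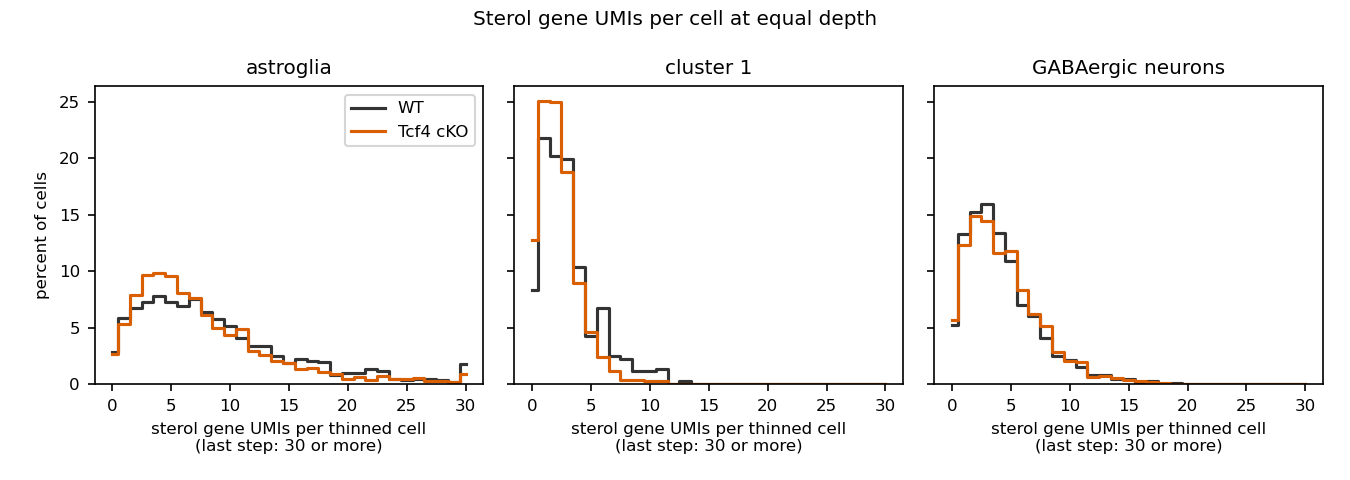
Share of cells (percent, linear axis) by the number of UMIs of the 18 sterol enzymes in a cell thinned to 3341 UMIs, for astroglia, cluster 1 and GABAergic neurons, WT in black and Tcf4 cKO in orange; the last step collects 30 or more. In astroglia the orange line lies slightly below the black one at 0 and 1 UMIs, above it from 2 to 7 and mostly below it beyond that, and in GABAergic neurons it lies below the black line from 1 to 4 and above it from 5 to 9.

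In cycling and intermediate progenitors the direction was the same, with sterol ratios nearer 1 than in astroglia. The exception was cycling progenitors when clusters counted equally. In cycling progenitors the sterol sum was 1163 CPM in WT and 1053 CPM in cKO, a ratio of 0.905 (0.881 to 0.930), and 25 of 30 genes were lower, against 52.7% of all genes. The intervals of 7 lay wholly below 1, against 8.89% of all genes: Mvd, Hsd17b7, Cyp51, Insig1, Msmo1, Hmgcs1 and Idi1, with ratios from 0.688 to 0.883. In intermediate progenitors the sums were 810 and 756 CPM, a ratio of 0.934 (0.900 to 0.969), with 22 of 30 genes lower against 56.3%, and 5 intervals below 1 against 12.5%. There the fatty acid sum went the other way, at 1.05 (1.01 to 1.10), with Acly at 130 and 159 CPM, a ratio of 1.22 (1.12 to 1.33). The log2 ratio of the cycling sterol sum, -0.144, was -0.275 when its clusters counted equally, farther from 0 than the -0.161 of astroglia in that setting. The log2 ratio of the fatty acid sum of intermediate progenitors, 0.0733, was -0.0111 as a mean of log2 ratios. Among smaller classes the sterol ratio was 0.779 (0.705 to 0.861) in oligodendrocyte progenitors, with 38 WT and 41 cKO cells. In ependymal or choroid plexus cells, with 35 and 24 cells, it was 0.696 (0.586 to 0.824), and 72.5% of all genes were lower there. Both ratios were farther from 1 than in astroglia, but the interval of the oligodendrocyte progenitors held the astroglial ratio of 0.852. Those of Cajal-Retzius cells and microglia, 1.03 and 1.04, had intervals that held 1.

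Glutamatergic neurons gave no stable direction. The sterol sum was 955 CPM in WT and 987 CPM in cKO, a ratio of 1.03 (1.01 to 1.06), with 14 of 30 genes lower against 55.3% of all genes, and 4 intervals wholly below 1 against 18.7% and 3 above against 12.9%. Idi1 held 31.2 and 41.3 CPM, a ratio of 1.32 (1.16 to 1.51), and Hmgcs1 168 and 187 CPM, a ratio of 1.11 (1.05 to 1.18). Hsd17b7 held 15.9 and 9.68 CPM, a ratio of 0.607 (0.478 to 0.767), Ebp 19.6 and 13.9 CPM, a ratio of 0.708 (0.578 to 0.864), and Insig1 28.0 and 22.5 CPM, a ratio of 0.806 (0.686 to 0.946). Srebf1, Srebf2 and Stard4 had intervals that held 1, as did Scd1, Scd2 and Fads1, while Fads2 was at 1.15 (1.01 to 1.31). The class was made of different clusters in the 2 libraries: clusters 7 and 17 held 778 and 504 WT cells but 4 and 6 cKO cells, and clusters 10 and 21 held 762 and 340 cKO cells but 11 and 17 WT cells. Such clusters may reflect the library and not a cell type. Once unnamed cells were counted in the class they were nearest to, the log2 ratio of the sterol sum turned from 0.0483 to -0.175, that of Idi1 to -0.132, that of Hmgcs1 to -0.0779 and that of Fads2 to -0.0162, while that of Ebp moved from -0.382 to -0.138. The log2 ratio of Idi1, 0.355, was 0.131 with doublet calls kept in and 0.103 and 0.160 at cluster resolutions of 0.5 and 2. The sterol sum was above 0 in 7 of 12 settings.

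The unnamed clusters 1 and 5, nearest to glutamatergic neurons, had cells of both libraries and the lowest sterol ratios of all clusters with 50 cells in each library. They were singled out after the values were seen. Cluster 1 (446 WT and 1120 cKO cells) was led by Ebf1 and Neurod1, genes of newborn neurons, and its markers of glutamatergic neurons and of intermediate progenitors were too close for a name. Its sterol sum was 912 CPM in WT and 685 CPM in cKO, a ratio of 0.752 (0.721 to 0.784), while its fatty acid sum was 630 and 714 CPM, a ratio of 1.13 (1.08 to 1.19). Of the 30 genes, 15 were more than 20% lower on that scale, against 7.77% of all genes, and 17 had an interval wholly below 1, against 10.9%. Idi1 held 32.7 and 11.7 CPM, a ratio of 0.356 (0.270 to 0.469). Cyp51 held 137 and 84.3 CPM, a ratio of 0.614 (0.547 to 0.689), and Insig1 38.3 and 23.7 CPM, a ratio of 0.619 (0.497 to 0.772). Ratios of Nsdhl, Hsd17b7, Sqle and Msmo1 lay between 0.524 and 0.670. Acly was higher, at 104 and 160 CPM, a ratio of 1.55 (1.38 to 1.73), as was Scd2, at 1.12 (1.05 to 1.20), while Srebf2 held 46.2 and 46.4 CPM.

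Cluster 5 (154 WT and 808 cKO cells), led by Calb2 and Zfp385b, had a sterol sum of 1067 CPM in WT and 828 CPM in cKO, a ratio of 0.776 (0.738 to 0.816), and a fatty acid ratio of 1.01 (0.942 to 1.09). Of the 29 genes with at least 20 UMIs, 9 had an interval wholly below 1, against 10.9%. Insig1 held 35.4 and 16.6 CPM, a ratio of 0.470 (0.349 to 0.640), Stard4 9.25 and 4.30 CPM, a ratio of 0.465 (0.256 to 0.879), and Cyp51 167 and 111 CPM, a ratio of 0.666 (0.585 to 0.759). Scd1, the gene left out, had 3 and 6 UMIs. Idi1, the lowest in cluster 1, was at 0.760 here with an interval that reached 1. In both clusters the cKO cells had fewer UMIs, with medians of 8581.5 in WT and 6668.5 in cKO in cluster 1 and 11001.5 and 9805 in cluster 5. Thinned to 1 depth, the log2 ratio of the sterol sum was -0.414 in cluster 1, from -0.412 unthinned, and -0.410 in cluster 5, from -0.365. Emx1 was also lower in cKO, with 221 CPM in WT and 111 CPM in cKO in cluster 1 and 106 and 43.4 CPM in cluster 5. Whether the cells of the 2 libraries in these clusters were otherwise alike was not tested.

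Astroglia were not uniform either. Cluster 13 had a sterol ratio of 0.782 (0.758 to 0.807) and cluster 15 one of 0.870 (0.837 to 0.905), where Emx1 was at 66.1 and 109 CPM in WT. It was 0.876 (0.857 to 0.895) in cluster 2, which had 19.8 CPM of Emx1 and a Tcf4 ratio of 1.01. In cluster 19 (288 WT and 91 cKO cells), led by Fgf17 and Fgf8 and with 7.58 CPM of Emx1, it was 1.10 (1.04 to 1.16). In cluster 13 Hmgcs1 and Msmo1 had ratios of 0.708 (0.661 to 0.758) and 0.705 (0.633 to 0.784), and 12 of 30 intervals lay below 1, against 7.71% of all genes. In cluster 19 Fads2 was at 1.28 (1.03 to 1.57) and Fdps at 1.27 (1.04 to 1.54), and Hsd17b7 was again lower, at 0.493 (0.245 to 0.906). The clusters of cycling cells, or nearest to them, differed as well. Cluster 16 had a ratio of 0.779 (0.752 to 0.807), the unnamed cluster 14 one of 0.843 (0.817 to 0.870) and cluster 20 one of 0.845 (0.792 to 0.901), where Emx1 was at 78.7, 82.1 and 156 CPM in WT. Cluster 12, with 6.26 CPM of Emx1, had a ratio of 0.953 (0.899 to 1.01). The unnamed cluster 18, with 22.2 CPM of Emx1, was led by Olig1 with Fgf8 and Fgf17 among its leading genes and had 1776 CPM in WT and 2071 CPM in cKO, a ratio of 1.17 (1.12 to 1.21). There 28 of 30 genes were higher, against 45.3% of all genes, and 9 had an interval wholly above 1, against 5.28%.

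**Figure D4:**
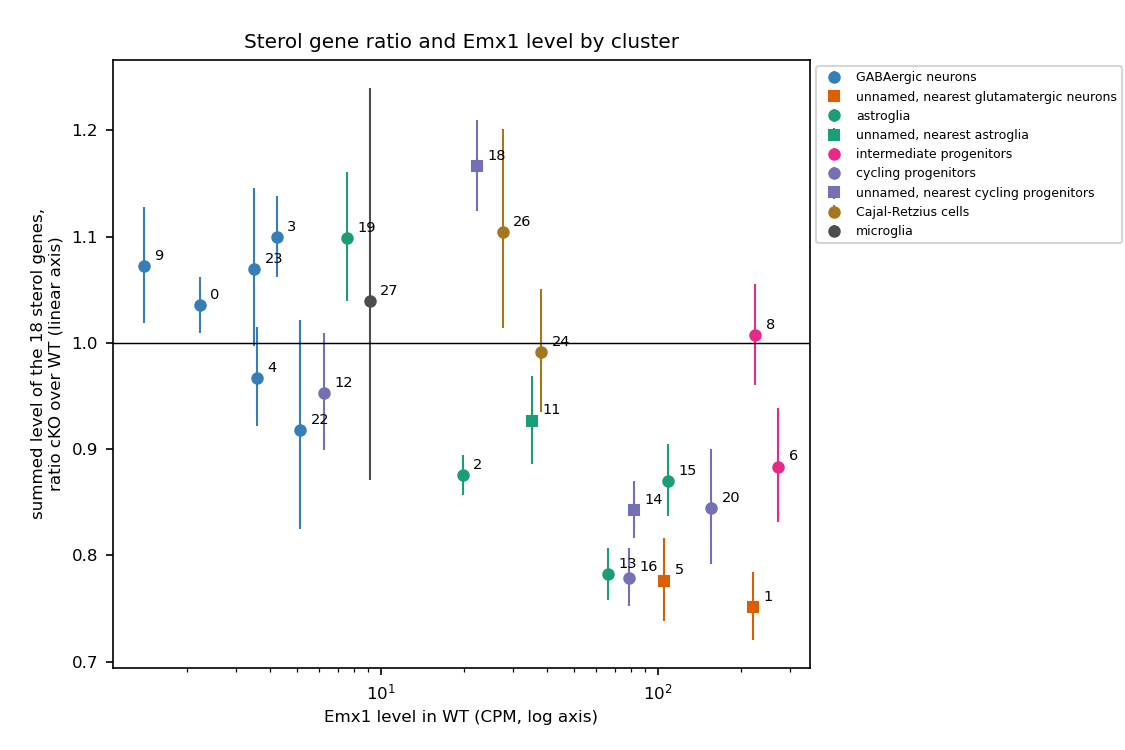
Ratio (cKO over WT, linear axis) of the summed level of the 18 sterol enzymes against the Emx1 level in WT (CPM, log axis) for the 23 clusters with at least 50 cells in each library, numbered, with 95% counting intervals; colours are classes and squares are unnamed clusters. Clusters to the right lie mostly below 1, down to cluster 1 at 0.752, and GABAergic clusters to the left lie around 1.

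Over the 23 clusters with 50 cells in each library, the rank correlation of the sterol ratio with the Emx1 level in WT was -0.61, and with the Tcf4 ratio 0.34. With the sterol level itself it was -0.05, and the fatty acid ratio had -0.04 with Emx1. The comparison with Emx1 was chosen after the values were seen, and the points share the same 2 libraries, so they are a description and not replicates. Of 13 clusters with at least 20 CPM of Emx1, 9 had a sterol interval wholly below 1 and 2, clusters 18 and 26, wholly above 1. Of 10 clusters under that line, 1 lay below 1, cluster 2 at 19.8 CPM, and 4 above. Without Hmgcs1, the gene with the most UMIs, the sterol ratio was 0.727 in cluster 1, 0.802 in cluster 16 and 1.20 in cluster 18.

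The list of 43 companions holds other genes of the same metabolism, taken by function: SREBP processing and LXR, further sterol and isoprenoid steps, sterol transport, efflux and storage, and fatty acid supply, elongation and activation. In astroglia 42 had at least 20 UMIs, with 28 lower, against 56.7% of all genes, a median log2 ratio of -0.06, and 8 intervals wholly below 1 and none above, against 12.4% of all genes above; 8 of 42 is close to the 19.9% of all genes below. The 8 were Cyb5r3, Lrp1, Lrp8, Cyp46a1, Me1, Tecr, Fabp7 and Dbi. The 2 lipid-binding proteins among them were abundant: Fabp7 held 7429 and 6167 CPM, a ratio of 0.830 (0.822 to 0.838), and Dbi, the acyl-CoA binding protein, had a ratio of 0.889 (0.880 to 0.898). None of the 41 companions with at least 50 UMIs had an interval wholly past 20% lower or 25% higher in astroglia, against 5.61% of all genes with as many UMIs. In glutamatergic neurons 26 of 40 were lower (median -0.07), near the 55.3% of all genes, and 2 of 38 lay wholly past that fold, against 9.05% of all genes. Both were higher: Mylip, the ubiquitin ligase that degrades lipoprotein receptors, with 51 and 63 UMIs and a ratio of 1.92 (1.31 to 2.84), and Vldlr, a receptor it targets, at 35.3 and 51.3 CPM, a ratio of 1.45 (1.29 to 1.64). In GABAergic neurons 25 of 43 were higher (median 0.02), near the 52.0% of all genes, and 2 of 42, Elovl7 and Fabp7, lay wholly past that fold, against 2.53% of all genes. The elongase Elovl7 was at 0.508 and 3.38 CPM, a ratio of 6.64 (3.51 to 13.9) that rests on 11 and 76 UMIs in 2508 and 2853 cells. Fabp7, an astroglial marker, was at 77.5 and 54.7 CPM in GABAergic neurons, a ratio of 0.707 (0.656 to 0.761), and its part in the other GABAergic values was not tested.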

How the data were processed

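Single-cell RNA was measured with 10x droplets in 1 WT and 1 Tcf4_cKO library, and the libraries held 116998498 and 121321247 UMIs. The authors deposited unfiltered UMI counts per gene and barcode, and per the file headers Cell Ranger 7.1.0 made them. The version in the submitters' processing notes is 2.1.1, with mm10 as the build. Barcodes were kept above 3348 (WT) and 3341 (cKO) UMIs, with a minimum of 500 genes and a mitochondrial limit of 10%. Doublets (3.00% and 4.09%) were called by a simulation method of the scrublet kind and removed. That method was chosen after other doublet counts had been seen. The libraries shared 22 cell barcodes. Cells were clustered with leidenalg 0.10.2 on 2000 variable genes without the 30 members, and named by marker lists (at least 3 markers, 1.5-fold); the naming rules were set with the data in view. UMIs were summed per class and library and scaled to CPM. Intervals are exact Poisson, conditional binomial or Clopper-Pearson and cover counting error only; those of differences from GABAergic neurons are Wald intervals with 0.5 added to each count. Log2 ratios add 5 CPM and need 20 UMIs. The computation used Python 3.11.15, scipy 1.17.1 and, for alternative scalings, edgeR 4.0.16 and DESeq2 1.42.0. The ratios and their intervals were tested on simulated class sums with counting error alone, and the other steps were not tested in this way. Values are given for the 5 members of highest WT level, the 5 per class (astroglia, glutamatergic, GABAergic) whose interval lay farthest from 1, the 4 regulators and transporters, Scd1, Scd2, Fads1 and Fads2, and companions wholly past 20% lower or 25% higher. The members and lists were chosen with earlier results of these data known. Clusters 1, 2, 5, 12, 13, 14, 15, 16, 18, 19 and 20, and the genes named in them and among progenitors, were singled out after their values were seen. Gene overlaps are from GENCODE vM21 (mm10). Counting by strand is not given in the sources used here.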

Additional observations from a re-analysis of the deposited data

Results flagged for a closer look

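Several members lay below 1 in one class and above 1 in another by their counting intervals. The share of all genes that did so was not counted, so the pattern is not shown to be particular to these genes. With 1 library per genotype none of these differences was tested over replicates. The ratio (cKO over WT) of the sterol sum was 0.852 in astroglia, 0.905 in cycling progenitors and 0.934 in intermediate progenitors, against 1.03 in glutamatergic and 1.06 in GABAergic neurons. That of the fatty acid sum was 0.947 in astroglia, 1.05 in intermediate progenitors and 1.04 in GABAergic neurons. Among the mevalonate enzymes, Hmgcs1 was at 0.79 in astroglia and 0.875 in cycling progenitors, against 1.11 in glutamatergic and 1.14 in GABAergic neurons. Pmvk, phosphomevalonate kinase, was at 0.921 in astroglia and 1.06 in GABAergic neurons. Mvd was at 0.844 in astroglia and 0.688 in cycling progenitors, but at 1.34 in intermediate progenitors and 1.21 in GABAergic neurons. Idi1 was at 0.882 in astroglia and 0.883 in cycling progenitors, against 1.32 in glutamatergic neurons. Of the later sterol enzymes, Msmo1 was at 0.817 in astroglia, 0.857 in cycling and 0.787 in intermediate progenitors, against 1.15 in GABAergic neurons. Of the desaturases, Scd1 was at 0.772 in astroglia and 1.42 in GABAergic neurons, where its level was below that of free RNA. Scd2 was at 0.965 and 1.09 in the same classes. Fads2 was at 0.869 in astroglia and 1.15 in glutamatergic neurons. The glutamatergic values of the sterol sum, Hmgcs1, Idi1 and Fads2 fell below 1 once unnamed cells were added to their nearest class. Those of Scd2 and Fads2 in astroglia rose above 1 when clusters counted equally.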

How the results depend on the processing

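No paired analysis was possible because each genotype has 1 library. Of the class summaries under alternative settings, 288 stayed close to the reported value, 66 moved and 6 reversed. Close means within counting error for sums and within 1.5 times for counts of genes. For medians it means within an interval taken from the spread of the genes. Reversed means a change of sign in a value whose interval did not hold 0, so other changes of sign are not among the reversed. The glutamatergic median, for example, kept its sign in 10 of 14 settings and the glutamatergic fatty acid sum in 9 of 12. Of the named genes' values, 707 stayed within counting error, 32 moved and 9 reversed. The cause was not tested. In astroglia the log2 ratio of the sterol sum (-0.232) moved to -0.166 with unnamed cells added to their nearest class, -0.161 with clusters weighted equally, -0.197 with thinned cells, -0.201 without mitochondrial, ribosomal and haemoglobin genes, -0.193 with TMM, -0.19 with median-of-ratios scaling and -0.19 as the mean of log2 ratios. The fatty acid sum (-0.0778) moved to -0.0162, -0.00109, -0.0396 and -0.0358 with unnamed cells, equal weights, TMM and median-of-ratios, and the members' median (-0.178) to -0.114 with unnamed cells. Scd2 reversed to 0.00355 with unnamed cells and 0.0329 with equal weights, and Fads2 to 0.0547 with equal weights. The count of members lower past the fold (2) was 1 with doublets kept, equal weights or without mitochondrial genes, 4 with a pseudocount of 1 CPM, and 0 at either other resolution, with unnamed cells, either scaling or a fold of 1.5. In cycling progenitors the sterol sum (-0.144) moved to -0.102 with unnamed cells, -0.275 with equal weights and -0.103 as the mean, and the fatty acid sum (-0.0477) to -0.119 with thinning. The count lower there (1) was 2 with doublets kept, resolution 2, without mitochondrial genes or with free RNA subtracted, 7 with equal weights, 4 with thinning, 3 with a pseudocount of 1 CPM, and 0 with unnamed cells or a fold of 1.5. In intermediate progenitors the count lower (2) was 1 with the UMI minimum doubled, 4 with doublets kept or a pseudocount of 1 CPM, 5 with thinning and 0 at a fold of 1.5. The count higher (1) was 0 with doublets kept, a mitochondrial limit of 5%, either resolution, thinning or a fold of 1.5, and the fatty acid sum (0.0733) reversed to -0.0111 as the mean. In glutamatergic neurons the sterol sum (0.0483) reversed to -0.107 with doublets kept, -0.097 and -0.0782 at resolutions 0.5 and 2, -0.175 with unnamed cells and -0.0106 as the mean. In the first 4 of these settings the median (0.0264) moved to -0.105, -0.0678, -0.0637 and -0.126, and Hmgcs1 reversed to -0.0554, -0.0369, -0.0174 and -0.0779. With unnamed cells Idi1 reversed to -0.132 and Fads2 to -0.0162. The fatty acid sum (0.0378) moved to -0.0702 with doublets kept and -0.042 at resolution 2. The count higher (1) was 0 with doublets kept, either resolution or a fold of 1.5, and the count lower (2) was 4 with thinning and 0 at a fold of 1.5. Equal weights gave no glutamatergic value, since no named cluster of the class had 50 cells in both libraries. In GABAergic neurons the sterol sum (0.0813) moved to 0.119 with the UMI minimum doubled, 0.0478 with doublets kept, 0.0537 with equal weights, 0.0503 with thinning and 0.0446 as the mean. The count lower (1) was 0 with thinning or a fold of 1.5, and the count higher (0) was 1 with a pseudocount of 1 CPM. Among alternatives added after seeing the data, the sterol sum of cluster 1 (-0.412) was -0.315 with the UMI minimum doubled. Scd1 and Srebf1 had between 15 and 99 UMIs per library in glutamatergic and GABAergic neurons, at levels below those in free RNA, so depth limits what their ratios there can show.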
